A study of Rattus norvegicus with 8 samples.

Results

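Wild-type PPARα was compared with YFP alone over every feature of the deposited table, using 4 of the 8 libraries in the series. The WT group, 2 libraries, came from H9C2 cells carrying pDC316 with YFP fused to wild-type PPARα. The YFP group, also 2 libraries, came from H9C2 cells carrying pDC316 with YFP and no receptor. H9C2 is a permanent rat cardiomyoblast line derived from embryonic heart, so all values describe 1 cell line. Cells of both groups were grown in serum-containing DMEM/F-12 and harvested 2 days after transduction, and the labels name no receptor agonist. The delivered receptor was expressed on top of the cells' own Ppara. The column names put both WT libraries in sequencing lane 2 and both YFP libraries in lane 1. Lane and construct therefore cannot be told apart within these 4 libraries. The remaining 4 libraries, from cells carrying the S280A or S280D form of the receptor, were read 1 per lane for each form. They entered the filter on low counts, the scaling and the fit, where they helped to estimate the spread. They are the only libraries from which a lane term can be estimated. The labels do not say whether replicate libraries are separate cultures. Every p-value thus reflects the variation among these libraries alone, which may be technical.

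PPARα is a nuclear receptor activated by fatty acids. It binds DNA as a dimer with a retinoid X receptor, at direct repeats of a short sequence motif, and in heart and liver it is known for switching on genes of fatty acid uptake, carnitine transport and oxidation in mitochondria and peroxisomes. It is also known to restrain inflammatory transcription through NF-κB and AP-1.

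Ppara itself separated the groups by more than any spread between replicates. In Rnor_6.0 it spans bases 126619196 to 126681752 of chromosome 7. Ppara exon reads, scaled to library size as TMM-adjusted CPM, stood at 12382 and 24134 CPM in WT, against 74.4 and 59.5 CPM in YFP. It took 1.29% and 2.43% of exon reads in WT and 0.00736% and 0.0061% in YFP. WT replicate 2 thus held about as much again as WT replicate 1, and the groups did not overlap. The log2 fold change was 8.09 ± 0.34 (SE, n = 2 per group for every comparison; edgeR quasi-likelihood test, adjusted p = 6.8e-07). Reads in Ppara introns were higher too, at 145 and 316 CPM of intron reads in WT and 19.1 and 16.9 CPM in YFP, a log2 fold change of 3.68 (adjusted p = 4.83e-04). The intron reads of WT replicate 2 again exceeded those of replicate 1. Delivered and endogenous Ppara reads were not separated, because the sources used here do not describe the insert's species or untranslated parts.

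The libraries differed in more than Ppara. Exon reads totalled 19229424 and 16698202 in WT and 17252523 and 19070170 in YFP, so depth was alike. Reads in introns made up 14.4% and 14.5% of gene reads in WT, against 11% and 11.9% in YFP, and between 14.2% and 15.8% in the 4 mutant libraries of both lanes. Exon-exon junction reads were 21.8% and 21.9% of exon reads in WT and 23.2% and 23% in YFP. Their part in the results that follow was not tested. As a check of the labelled cell type, Tnnt2, cardiac troponin T, was read at 129 and 165 CPM in WT and 172 and 265 CPM in YFP. The other 7 cardiomyocyte markers lay at 2.56 CPM or below. Some markers of leukocytes (Ptprc, Adgre1), endothelium (Emcn), epithelium (Krt19, Cldn4), neurons (Snap25, Syp) and skeletal myoblasts (Myf5, Chrna1) had no reads in any of the 4 libraries. These genes are named because they had no reads. Other members of these lists were read. Cd14 lay between 19.1 and 25.5 CPM over the 4 libraries, Krt8 between 13.7 and 22.5 CPM, and Cdh15 between 6.4 and 10 CPM. Tubb3 lay between 7.46 and 11.7 CPM, Map2 between 4.1 and 8.5 CPM, and Tek between 0.715 and 1.3 CPM. The myoblast markers Myod1, Myog and Des had low values, at 0.102 to 0.536, 0.1 to 0.82 and 0.45 to 0.894 CPM. Some markers of fibroblasts and smooth muscle lay far above Tnnt2, with Col1a1 between 18968 and 34547 CPM and Acta2 between 7493 and 11477 CPM. Others lay below it. The fibroblast markers Pdgfra and Dcn were at 0.179 CPM or below and between 19.5 and 26 CPM. Myh11, of smooth muscle, lay between 4.51 and 5.75 CPM.

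Of 12407 genes that passed the filter on low counts, 1513 (12.2%) were higher and 924 (7.45%) lower in WT at an adjusted p under 0.05. The increases were the steeper. At least 2-fold changes made up 603 of the 1513 higher genes (39.9%) and 75 of the 924 lower ones (8.12%). Calls also followed transcript length. In the quartile of genes with the shortest exon length, 6.58% were higher and 10.3% lower in WT. In the longest quartile, 19.5% were higher and 5.42% lower. With an offset that removed the length trend from each library, 1508 were higher and 1211 lower, and the longest quartile held 491 higher and 433 lower calls.

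**Figure D1:**
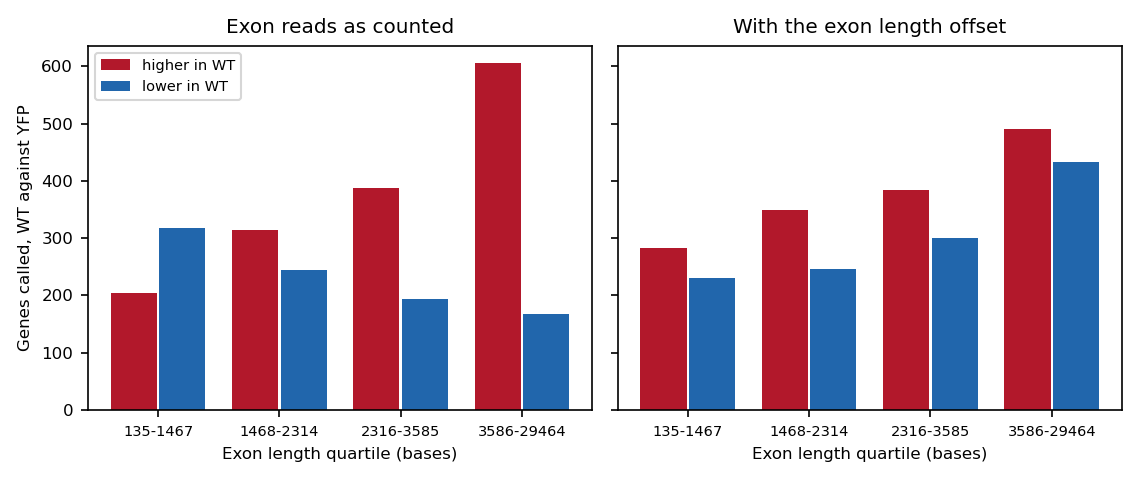
Number of genes called higher (red) or lower (blue) in WT against YFP, by quartile of exon length in bases, as counted (left) and after the exon length offset (right). As counted, higher calls go up from 204 in the shortest quartile to 606 in the longest while lower calls go down from 318 to 168; with the offset, higher calls are 283 and 491 and lower calls 230 and 433 in the same quartiles.

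A lane covariate moved the number of calls more than the size of the changes. It left 8 genes called higher and 1 lower. The median log2 fold change of the 1513 higher genes was 0.88 with the covariate and 0.89 without it, while the median SE was 0.31 with it and 0.2 without. All 1513 kept their sign, and 1160 had an unadjusted p under 0.05. For the 924 lower genes the medians were -0.5 with the covariate and -0.57 without, all kept their sign, and 439 had an unadjusted p under 0.05. No gene was called for the lane term itself by edgeR, where 137 had an unadjusted p under 0.05. The estimated lane term had the sign of the WT change in 51.6% of the higher genes and in 71.9% of the lower ones. Single libraries mattered as well. With WT replicate 1 left out the test called 163 genes, with WT replicate 2 left out 950, and with YFP replicate 1 left out 768. Of the 12 largest increases named further on, 10 were still called without WT replicate 1, where Matr3 and Tfrc were not, and of the 12 largest decreases 2 were, Agpat1 and Rps2-ps6. Counts in the paragraphs that follow come from the fit without a lane term, and apart from the 9 genes described near the end, no gene named in them was called with the lane covariate.

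**Figure D2:**
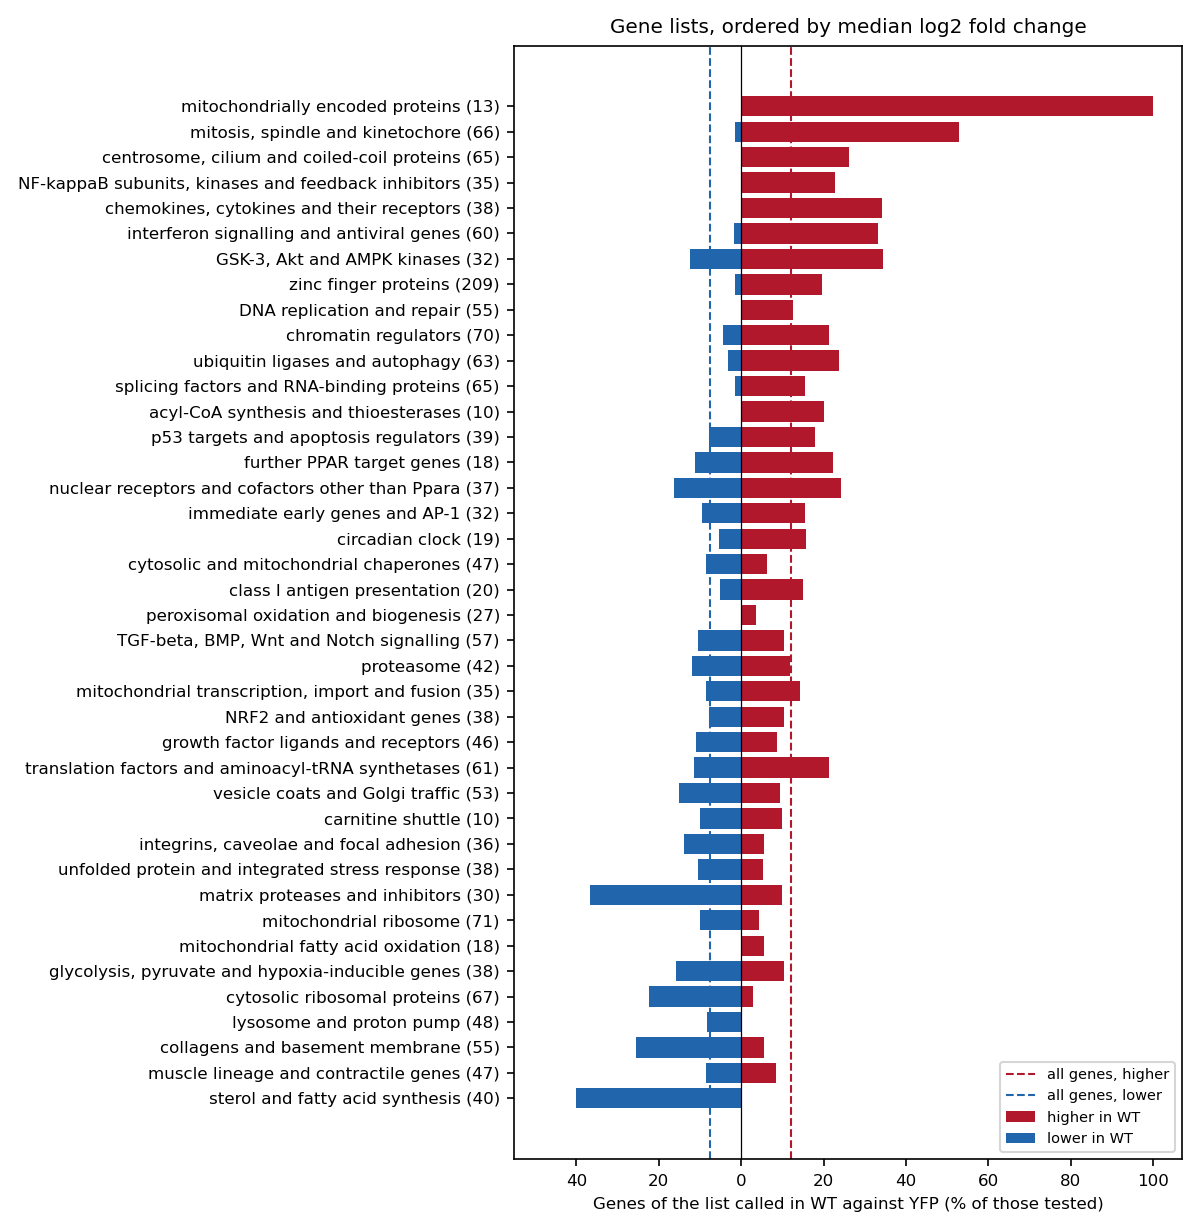
Percentage of the tested genes of each list that were called higher (red, right) or lower (blue, left) in WT against YFP, with the number tested in brackets, for lists with at least 10 genes tested; dashed lines mark 12.2% and 7.45%, the shares over all genes. Mitochondrially encoded proteins and mitosis genes reach furthest to the right, and sterol and fatty acid synthesis and matrix proteases furthest to the left.

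Genes of fatty acid use, the textbook targets of the receptor, gave few calls in mitochondria and peroxisomes and calls in both directions elsewhere. Of 18 genes of mitochondrial fatty acid oxidation tested, 1 rose and none fell in edgeR, against 12.2% and 7.45% of all genes, while 4 were higher and 3 lower at an unadjusted p under 0.05 and DESeq2 called none lower. Their median log2 fold change was -0.2, against -0.01 over all genes. Acadl, the long-chain acyl-CoA dehydrogenase, was the one that rose, with 45.2 and 49.3 CPM in WT and 35 and 34.2 CPM in YFP (0.45 ± 0.13, adjusted p = 0.0306). Both subunits of the trifunctional protein were without a call, with Hadha at 132 and 132 CPM in WT and 152 and 165 CPM in YFP (-0.27 ± 0.13, adjusted p = 0.156). Among 10 carnitine shuttle genes 1 rose and 1 fell. Cpt1b, the muscle form of carnitine palmitoyltransferase, had 7.45 and 8.7 CPM in WT, against 4.22 and 5.06 CPM in YFP (0.79 ± 0.21, adjusted p = 0.0258). Cpt1c, the form known from brain, had 11.3 and 12.2 CPM in WT and 17.2 and 19.1 CPM in YFP (-0.63 ± 0.19, adjusted p = 0.0413). Neither pair of groups overlapped. Cpt1a, the liver form, was at 23.4 and 17.8 CPM in WT and 19.4 and 13.8 CPM in YFP, which overlap (0.31 ± 0.2, adjusted p = 0.279).

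Peroxisomal genes gave 1 call among 27 tested, with 4 higher and 5 lower at an unadjusted p under 0.05 and 1 lower call in DESeq2. Over all genes 12.2% were called higher and 7.45% lower in edgeR. Cat, which encodes catalase, rose, with 46.3 and 38.5 CPM in WT and 19.1 and 22 CPM in YFP (1.04 ± 0.23, adjusted p = 0.0129). Of 10 genes of acyl-CoA synthesis and thioesterases 2 rose and none fell in edgeR or DESeq2, with 1 lower at an unadjusted p under 0.05. Acsl4, a ligase that activates arachidonate, had 65.4 and 59.5 CPM in WT and 25.2 and 33.5 CPM in YFP (1.09 ± 0.2, adjusted p = 0.00656). The thioesterase Acot9 had 38.5 and 35 CPM in WT and 18.6 and 28 CPM in YFP (0.66 ± 0.2, adjusted p = 0.0413). The fatty acid uptake and binding genes Cd36, Fabp3 and Fabp4 did not pass the filter on low counts. None of the calls in the mitochondrial, carnitine, peroxisomal and acyl-CoA lists was left in edgeR without WT replicate 1.

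A list of further PPAR target genes had 18 tested, of which 4 rose (22.2%) and 2 fell (11.1%), against 12.2% and 7.45% of all genes. Of the increases 1 was called without WT replicate 1 and 2 without WT replicate 2. Angptl4, a secreted inhibitor of lipoprotein lipase, had 7.6 and 9.65 CPM in WT and 3.34 and 1.99 CPM in YFP (1.7 ± 0.29, adjusted p = 0.00536). Hsdl2, a peroxisomal dehydrogenase-like protein, had 20.2 and 18.3 CPM in WT and 10.8 and 10.5 CPM in YFP (0.86 ± 0.17, adjusted p = 0.00864). Rab9a, a small GTPase of endosome traffic, had 23.2 and 21.6 CPM in WT and 11.9 and 12.1 CPM in YFP (0.9 ± 0.23, adjusted p = 0.0221). The groups were apart for each. Pnpla2, adipose triglyceride lipase, was also called higher (0.6 ± 0.16), but 0.128% of its exon reads were unique, so its value is uncertain. Mgll, the monoacylglycerol lipase that completes triglyceride breakdown, fell, at 14.8 and 14.2 CPM in WT and 26.8 and 34.9 CPM in YFP (-1.09 ± 0.18, adjusted p = 0.00531). Its intron reads fell alike, at 21.9 and 16.5 CPM in WT and 34.3 and 48.5 CPM in YFP (-1.11, adjusted p = 0.0417). Aldh9a1, an aldehyde dehydrogenase of carnitine synthesis, had 99.8 and 105 CPM in WT and 159 and 144 CPM in YFP (-0.57 ± 0.14, adjusted p = 0.0204). Of the targets without a call, Plin2, which coats lipid droplets, was at 97.6 and 101 CPM in WT and 82.6 and 81.8 CPM in YFP (0.28 ± 0.11, adjusted p = 0.103). Pdk4, Cyp4a1 and Ucp3 did not pass the filter.

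The promoter of Angptl4 is shown as the window from 250 bases before to 50 bases after the RefSeq start, chr7:15258632-15258931, minus strand, in GRCr8, since Angptl4 had the largest increase among the called PPAR targets.
Angptl4 promoter: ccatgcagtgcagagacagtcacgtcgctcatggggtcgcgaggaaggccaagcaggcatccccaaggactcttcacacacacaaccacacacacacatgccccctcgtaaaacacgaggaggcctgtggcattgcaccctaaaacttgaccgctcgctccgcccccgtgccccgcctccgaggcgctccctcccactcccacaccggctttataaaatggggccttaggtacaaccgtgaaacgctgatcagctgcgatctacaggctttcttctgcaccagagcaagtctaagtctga
It was searched on both strands for AGGTCANAGGTCA, a direct repeat of the nuclear receptor hexamer spaced by 1 base, for the hexamer AGGTCA, whose matches include those of the repeat, and for GGGANNNNCC, an NF-κB motif. None of these letters was found in this window, so no base is in capitals. Of 33469 promoters of the same length, 0.0538% held the repeat and 16.2% the hexamer. The promoter window of Mgll held none either.

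Among the receptor's partners and cofactors other than Ppara, 9 of 37 rose (24.3%) and 6 fell (16.2%), against 12.2% and 7.45% of all genes. The 6 that fell were all nuclear receptors. Rxra, the dimer partner, had 21.4 and 22.1 CPM in WT and 30.9 and 28.5 CPM in YFP (-0.45 ± 0.14, adjusted p = 0.0416). The orphan receptor Nr2f6 had 16.5 and 15.1 CPM in WT and 23.9 and 26.7 CPM in YFP (-0.68 ± 0.16, adjusted p = 0.0183). Rara, Rarg, Thra and Nr1h2 also fell, with log2 fold changes between -0.47 and -0.39. Of the 9 that rose, Nr1d2 is a nuclear receptor and the others are cofactors or deacetylases. Nrip1, a corepressor, had 47.4 and 44 CPM in WT and 20.2 and 31.4 CPM in YFP (0.82 ± 0.2, adjusted p = 0.0183). Sirt1, a deacetylase, had 11.2 and 13.6 CPM in WT and 5.56 and 5.26 CPM in YFP (1.19 ± 0.3, adjusted p = 0.0204). With the exon length offset 5 were higher and 8 lower, and without WT replicate 1, WT replicate 2 or YFP replicate 1 no member was higher in edgeR. Lower calls numbered 0 without WT replicate 1, WT replicate 2 or YFP replicate 2, 1 without YFP replicate 1, and 2 without either S280D library.

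The 12 largest increases among genes of at least 10 CPM held several interferon-induced and mitotic genes. Cav2, a caveolin, had 48.4 and 42.5 CPM in WT, against 7.61 and 7.31 CPM in YFP. Gbp5, an interferon-induced GTPase, had 35.6 and 43 CPM in WT and 8.26 and 6.85 CPM in YFP. Their log2 fold changes were 2.61 ± 0.21 and 2.38 ± 0.19 (adjusted p = 2.52e-04 for both). Cav1, the caveolin encoded beside Cav2 on chromosome 4, did not differ detectably, with 408 and 385 CPM in WT and 357 and 398 CPM in YFP (0.07 ± 0.12, adjusted p = 0.691). It was singled out after its values were seen. The caveolar coat genes Ptrf (-0.59 ± 0.11, adjusted p = 0.0082), Ehd2 (-0.65 ± 0.12, adjusted p = 0.00605) and Prkcdbp (-0.51 ± 0.14, adjusted p = 0.0318) fell. Among them Ptrf, which encodes cavin-1, had 558 and 581 CPM in WT and 850 and 864 CPM in YFP. On junction reads Cav2, Ptrf and Ehd2 stood at 2.16, -0.35 and -0.46, and none of them was called.

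Antiviral genes made up several of the other large increases. Ddx60, an antiviral helicase, had 124 and 114 CPM in WT and 25.9 and 27 CPM in YFP (2.17 ± 0.21). Slfn3, a Schlafen family gene, had 576 and 467 CPM in WT and 123 and 160 CPM in YFP (1.88 ± 0.26). Samd9l, an interferon-induced antiviral factor, had 262 and 216 CPM in WT and 65.7 and 52 CPM in YFP (2.02 ± 0.22). Adjusted p for Ddx60, Slfn3 and Samd9l were 9.45e-04, 0.00336 and 0.00126. Vps13a, a lipid transfer protein of membrane contact sites, had 50.2 and 42.2 CPM in WT and 11 and 11.2 CPM in YFP (2.06 ± 0.21). Mybl1, a transcription factor of the Myb family, had 36.1 and 27.8 CPM in WT and 7.73 and 10.1 CPM in YFP (1.84 ± 0.23). Tfrc, the transferrin receptor, had 22.3 and 18.1 CPM in WT and 4.92 and 6.64 CPM in YFP (1.8 ± 0.33). Matr3 (1.82 ± 0.31), a nuclear matrix RNA-binding protein, is less certain, since 29.6% of its exon reads were unique.

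**Figure D3:**
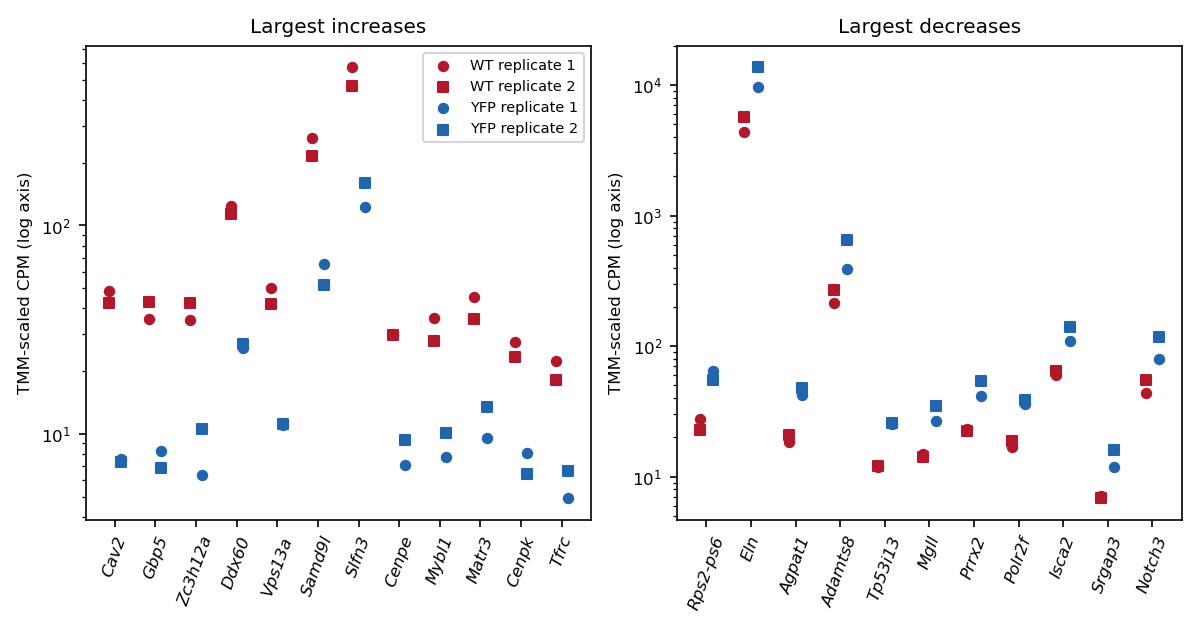
TMM-scaled exon-read CPM on a log axis in each library for the 12 largest increases (left panel) and 11 of the 12 largest decreases (right panel) in WT against YFP; the gene left out carries a clone name. WT libraries are red and left of the YFP libraries in blue, circles are replicate 1 and squares replicate 2; the choice of genes required that the groups be apart, and the decreases span less than the increases.

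The largest decreases were smaller and included matrix genes. Eln, elastin, the core of elastic fibres, had 4404 and 5726 CPM in WT, against 9661 and 13768 CPM in YFP (-1.21 ± 0.2, adjusted p = 0.00486). Adamts8, a secreted metalloprotease, had 214 and 271 CPM in WT and 389 and 653 CPM in YFP (-1.11 ± 0.23, adjusted p = 0.0103). Notch3, a Notch receptor of mural cells, had 43.8 and 54.9 CPM in WT and 79.2 and 117 CPM in YFP (-0.99 ± 0.18, adjusted p = 0.00673). For all 3 genes YFP replicate 2 was the highest library and WT replicate 1 the lowest. Polr2f, a subunit shared by the RNA polymerases, had 16.9 and 18.8 CPM in WT and 36.1 and 38.8 CPM in YFP (-1.07 ± 0.15). Isca2, which assembles iron-sulfur clusters, had 60.4 and 64.1 CPM in WT and 110 and 141 CPM in YFP (-1.01 ± 0.16). The decrease of Isca2 is less certain, since it stood at -0.17 on junction reads and 0.73 on intron reads, without a call on either. Prrx2, a mesenchymal homeobox factor, had 23.2 and 22.3 CPM in WT and 41.6 and 54.5 CPM in YFP (-1.08 ± 0.21). Tp53i13 (-1.1 ± 0.19), the GTPase activator Srgap3 (-1.01 ± 0.2) and Mgll also belong to this set. So does AC109958.1 (-1.09 ± 0.21), which carries a clone name and is uncertain, with 21.9% of its exon reads unique. Agpat1 (-1.19 ± 0.15) and the pseudogene Rps2-ps6 (-1.25 ± 0.15) are uncertain, since 17.5% and 9.24% of their exon reads were unique.

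Chemokine and cytokine genes gave higher calls. Of 38 tested 13 rose, none fell and 25 were not called in edgeR, against 12.2% and 7.45% of all genes, and no member was lower at an unadjusted p under 0.05 or in DESeq2. With the exon length offset 1 was lower, and on junction reads 2 were lower and 5 higher. The median was 0.27, and 25 of the 38 had a positive log2 fold change. Beside Cxcl1, the neutrophil attractant, the calls covered the monocyte attractant Ccl7, at 1.95 and 2.62 CPM in WT and 0.234 and 0.562 CPM in YFP (2.47 ± 0.59, adjusted p = 0.018). Cxcl10, an interferon-induced attractant of T cells, had 192 and 221 CPM in WT and 118 and 56.5 CPM in YFP (1.24 ± 0.25, adjusted p = 0.00969). Osmr, the oncostatin M receptor, had 11.9 and 11 CPM in WT and 5.62 and 3.88 CPM in YFP (1.27 ± 0.22, adjusted p = 0.00536). Il6, the interleukin, had 11.7 and 13.8 CPM in WT and 7.38 and 6.49 CPM in YFP (0.88 ± 0.23, adjusted p = 0.0236). Il1r1 and Il1rap, which form the interleukin-1 receptor, rose by 0.69 and 0.5. In all 13 the WT and YFP libraries did not overlap. This adds nothing to the calls, since it rests on the values that gave them. Over all genes tested, called or not, 64.3% did not overlap. Leaving out WT replicate 1 left 4 calls, leaving out WT replicate 2 left 6 and leaving out YFP replicate 1 left 8.

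For some of these genes, chosen after their values were seen, the WT libraries also stood above those of the receptor mutants. Cxcl1 had 8.4 and 10.7 CPM in WT, against 0.211 and 0.725 CPM in S280A, 0.943 and 0.501 CPM in S280D and 0.351 and 0.358 CPM in YFP. Ccl2, the monocyte chemoattractant, had 3.75 and 2.8 CPM in WT, 0.772 and 0.886 CPM in S280A, 0.774 and 0.865 CPM in S280D and 0.351 and 0.102 CPM in YFP. Nfkbiz, an inducible NF-κB cofactor, had 8.4 and 9.36 CPM in WT, 0.913 and 0.725 CPM in S280A, 1.64 and 1.37 CPM in S280D and 0.468 and 1.12 CPM in YFP. In each the 6 libraries from the other constructs lay below both WT libraries. Ptgs2 did not have this order, with 47.4 and 49.9 CPM in WT, 27 and 19.2 CPM in S280A, 58.3 and 50.2 CPM in S280D and 13.5 and 21.5 CPM in YFP. For Cav2 the mutants did not lie together, at 23 and 14.5 CPM in S280A and 78.9 and 92.8 CPM in S280D.

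The Cxcl1 promoter is shown because Cxcl1 had the largest increase after Ppara among the genes called with the lane covariate. It is the RefSeq window chr14:17479272-17479571, minus strand, in GRCr8.
Cxcl1 promoter: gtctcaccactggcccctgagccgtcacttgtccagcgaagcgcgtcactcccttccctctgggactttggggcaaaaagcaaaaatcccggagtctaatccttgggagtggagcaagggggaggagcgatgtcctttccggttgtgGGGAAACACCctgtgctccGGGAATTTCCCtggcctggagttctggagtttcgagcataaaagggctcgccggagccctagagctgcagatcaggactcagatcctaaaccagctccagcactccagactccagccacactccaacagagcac
Capitals mark GGGANNNNCC, found on both strands, with matches that begin 103, 84 and 83 bases before the start, the last on the opposite strand and overlapping its neighbour. Of 33469 promoters 19.3% held this motif, so a match is common. The hexamer AGGTCA and its repeat were not in the window. The window of Ptgs2, inducible cyclooxygenase and another called gene of the list, held none of the motifs.

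Genes of the NF-κB machinery rose in 8 of 35 cases in edgeR (22.9%, against 12.2% of all genes). None fell in edgeR or DESeq2, against 7.45% of all genes in edgeR, and 1 member was lower at an unadjusted p under 0.05. The median was 0.29. Zc3h12a, an RNase that degrades inflammatory transcripts, had 35.1 and 42.3 CPM in WT and 6.38 and 10.6 CPM in YFP (2.18 ± 0.24, adjusted p = 0.00126). Tnfaip3, the feedback inhibitor A20, had 31.9 and 37.6 CPM in WT and 20.7 and 17.7 CPM in YFP (0.86 ± 0.16, adjusted p = 0.00657). Nfkbia, the inhibitor IκBα, had 93.6 and 105 CPM in WT and 77.2 and 59.3 CPM in YFP (0.54 ± 0.15, adjusted p = 0.0274). Rel, a subunit, had 9.45 and 9.42 CPM in WT and 4.8 and 5.72 CPM in YFP (0.84 ± 0.22, adjusted p = 0.0259). The kinase adaptors Tab2 and Tab3 (1.7 ± 0.4, adjusted p = 0.0163) and the ubiquitin ligase Birc3 were the others beside Nfkbiz. Several of these are inhibitors that act after NF-κB is switched on, and several are activators. The list had 3 calls when WT replicate 1 was left out, 3 when WT replicate 2 was and 4 when YFP replicate 1 was.

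Interferon signalling and antiviral genes rose in 20 of 60 cases (33.3%) and 1 fell (1.67%), against 12.2% and 7.45% of all genes. Their median was 0.25. Herc6, a ubiquitin ligase family member, had 43.5 and 35 CPM in WT and 13.9 and 12.6 CPM in YFP (1.56 ± 0.21, adjusted p = 0.0032). Tlr3, the receptor for double-stranded RNA, had 11 and 15.5 CPM in WT and 4.68 and 4.75 CPM in YFP (1.49 ± 0.21, adjusted p = 0.00336). Jak2, a kinase of cytokine receptors, had 95.9 and 87.1 CPM in WT and 35.4 and 43.9 CPM in YFP (1.21 ± 0.17, adjusted p = 0.00336). Ifi27, an interferon-induced mitochondrial protein, fell, at 1318 and 1328 CPM in WT and 2119 and 2030 CPM in YFP (-0.65 ± 0.14, adjusted p = 0.0133). The antiviral genes thus did not all take one direction. Of 20 genes of class I antigen presentation 3 rose and 1 fell (15% and 5%, near the 12.2% and 7.45% of all genes), and none was called without WT replicate 1 in edgeR. Among them B2m, the invariant chain, had 5000 and 4561 CPM in WT and 3530 and 2600 CPM in YFP (0.64 ± 0.15, adjusted p = 0.0157). The interferon list had 7 higher calls when WT replicate 1 was left out, 14 when WT replicate 2 was and 16 when YFP replicate 1 was.

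Genes of mitosis, the spindle and the kinetochore rose in 35 of 66 cases (53%), and 1 fell (1.52%), against 12.2% and 7.45% of all genes. Their median was 0.72. Cenpe, a kinetochore motor, had 30.2 and 29.7 CPM in WT and 7.09 and 9.35 CPM in YFP (1.86 ± 0.24, adjusted p = 0.00248). Cenpk, a centromere protein, had 27.5 and 23.4 CPM in WT and 8.08 and 6.44 CPM in YFP (1.81 ± 0.27, adjusted p = 0.00352). Smc4, a condensin subunit, had 39.1 and 35.9 CPM in WT and 13.4 and 12.8 CPM in YFP (1.52 ± 0.24, adjusted p = 0.00464). Ccnd3, a G1 cyclin, was the member that fell, at 108 and 126 CPM in WT and 176 and 169 CPM in YFP (-0.56 ± 0.14, adjusted p = 0.0187). The p53 target Cdkn1a, an inhibitor of cyclin-dependent kinases, fell as well, at 271 and 298 CPM in WT and 431 and 373 CPM in YFP (-0.5 ± 0.14, adjusted p = 0.0318). Its list, of p53 targets and apoptosis regulators, had 7 of 39 genes higher (17.9%) and 3 lower (7.69%). DNA replication and repair genes were called less widely than mitosis genes, with 7 of 55 higher (12.7%, close to the 12.2% of all genes). No replication or repair gene was called lower, and 2 were lower at an unadjusted p under 0.05. None of the 7 was called without WT replicate 1. The mitosis list had 34 higher calls with the exon length offset, but 5 when WT replicate 1 was left out, 18 when WT replicate 2 was and 10 when YFP replicate 1 was. Intron reads of Cenpe, Cenpk and Smc4 were not called, at -0.29, 0.56 and 1. Those of Mki67, a further member with an exon change of 1.77, were not called either, at 1.24.

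Large coiled-coil proteins of the centrosome and cilium rose in 17 of 65 cases in edgeR (26.2%, against 12.2% of all genes). None fell in edgeR or DESeq2, against 7.45% of all genes in edgeR, and 2 were lower at an unadjusted p under 0.05. The median was 0.46. Rock2, a kinase of the actin cytoskeleton, had 316 and 252 CPM in WT and 87.3 and 99 CPM in YFP (1.61 ± 0.22, adjusted p = 0.00336). Cep126, a centrosomal protein, had 4.8 and 5.24 CPM in WT and 1.35 and 1.48 CPM in YFP (1.82 ± 0.27, adjusted p = 0.00389). Ift74, of intraflagellar transport, had 9.25 and 8.28 CPM in WT and 2.17 and 3.63 CPM in YFP (1.59 ± 0.26, adjusted p = 0.00499). The median exon length of this list was 3872 bases, against 2314 over all genes, and with the exon length offset 17 were higher and 2 lower. The list had 2 higher calls when WT replicate 1 was left out, 11 when WT replicate 2 was and 7 when YFP replicate 1 was.

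Chromatin regulators rose in 15 of 70 cases (21.4%) and fell in 3 (4.29%), against 12.2% and 7.45% of all genes. Their median exon length was 5896 bases. Suz12, a Polycomb subunit, had 52.1 and 39.2 CPM in WT and 11.1 and 15.2 CPM in YFP (1.79 ± 0.29, adjusted p = 0.00458). Pbrm1, of the SWI/SNF remodeller, had 28.5 and 23.5 CPM in WT and 7.32 and 14 CPM in YFP (1.28 ± 0.26, adjusted p = 0.00964). The histone deacetylase Hdac5 had 30.3 and 34.3 CPM in WT and 45.8 and 48.8 CPM in YFP (-0.55 ± 0.16, adjusted p = 0.0321), and Hdac7 fell by a similar amount (-0.47 ± 0.13, adjusted p = 0.0306). With the exon length offset 15 were higher and 9 lower, and the median was -0.04 with it and 0.14 without. Zinc finger genes rose in 41 of 209 cases (19.6%) and fell in 3 (1.44%). Zfp281, a transcriptional repressor, had 51.6 and 42.1 CPM in WT and 20.8 and 20.4 CPM in YFP (1.19 ± 0.19, adjusted p = 0.00432). Leaving out WT replicate 1 left 1 and 3 higher calls in the chromatin and zinc finger lists. Without WT replicate 2 there were 9 and 25, and without YFP replicate 1 there were 3 and 11.

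Among 63 ubiquitin ligases and autophagy genes 15 rose (23.8%) and 2 fell (3.17%), against 12.2% and 7.45% of all genes. Rb1cc1, a scaffold that starts autophagosome formation, had 65.3 and 54.2 CPM in WT and 21.2 and 22.9 CPM in YFP (1.44 ± 0.23, adjusted p = 0.00439). Cul5, a cullin scaffold, had 53.4 and 43.4 CPM in WT and 17.2 and 22.2 CPM in YFP (1.3 ± 0.22, adjusted p = 0.00523). Trim63, the muscle ligase MuRF1, had 6.6 and 7.09 CPM in WT and 11.1 and 10.5 CPM in YFP (-0.66 ± 0.19, adjusted p = 0.0335). Kinases of the GSK-3, Akt and AMPK pathways rose in 11 of 32 cases (34.4%) and fell in 4 (12.5%). Both catalytic subunits of AMPK, the energy sensor, rose, with Prkaa1 at 72.1 and 69.2 CPM in WT and 33.1 and 40.8 CPM in YFP (0.93 ± 0.16, adjusted p = 0.00548). Prkaa2 had 7 and 8.64 CPM in WT and 2.46 and 3.58 CPM in YFP (1.36 ± 0.26, adjusted p = 0.00791). Gsk3b, a kinase of glycogen metabolism, had 216 and 204 CPM in WT and 154 and 151 CPM in YFP (0.46 ± 0.11, adjusted p = 0.0198). Its paralogue Gsk3a was at 62.7 and 73.9 CPM in WT and 88.8 and 76.5 CPM in YFP (-0.28 ± 0.13, adjusted p = 0.16), and the difference between them was not tested. Akt1, which relays insulin signals, fell, at 533 and 542 CPM in WT and 771 and 723 CPM in YFP (-0.47 ± 0.13, adjusted p = 0.029). Of the kinase list 1 higher call was left when WT replicate 1 was left out, 6 when WT replicate 2 was and 3 when YFP replicate 1 was, and of the ubiquitin list 2, 11 and 5.

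Transcripts of all 13 protein-coding genes of mitochondrial DNA rose. Their median was 1.11, with log2 fold changes between 0.6 and 1.5. Mt-cytb, cytochrome b, had 686 and 567 CPM in WT and 190 and 254 CPM in YFP (1.5 ± 0.21, adjusted p = 0.00336). Mt-atp6, of the ATP synthase, had 748 and 722 CPM in WT and 273 and 305 CPM in YFP (1.35 ± 0.16, adjusted p = 0.0021). Mt-nd6, the complex I subunit read from the opposite strand, had 189 and 246 CPM in WT and 110 and 146 CPM in YFP (0.76 ± 0.22, adjusted p = 0.0351). The groups were apart in each. Mitochondrial genes together took 1.37% and 1.17% of exon reads in WT and 0.506% and 0.604% in YFP. The mutant libraries also differed, with 0.791% in lane 2 and 0.49% in lane 1 for S280A, and 1.4% in lane 2 and 1.66% in lane 1 for S280D. With lane as a covariate Mt-cytb stood at 1.29 (adjusted p = 0.106). The list had 5 calls when WT replicate 1 was left out, 11 when WT replicate 2 was and 10 when YFP replicate 1 was, and none of its genes had a junction test. Nuclear genes of the mitochondrial ribosome did not move with them, with a median of -0.18. Of 71 tested 3 were higher (4.23%) and 7 lower (9.86%), against 12.2% and 7.45% of all genes. Tfb2m, a mitochondrial transcription factor, rose, at 33 and 28.1 CPM in WT and 15.6 and 14.9 CPM in YFP (1 ± 0.16, adjusted p = 0.00475). Its list, of mitochondrial transcription, import and fusion, had 5 of 35 genes higher (14.3%) and 3 lower (8.57%). These shares are near the 12.2% and 7.45% of all genes, and the median of the list was -0.06.

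Genes of sterol and fatty acid synthesis fell in 16 of 40 cases and none rose in edgeR, where 7.45% of all genes were lower. DESeq2 called 15 lower and 1 higher, and at an unadjusted p under 0.05 in edgeR 20 were lower and 2 higher. The median was -0.34. The regulators fell with the enzymes. Srebf1 had 44.5 and 43.3 CPM in WT and 59.2 and 61.8 CPM in YFP (-0.46 ± 0.13, adjusted p = 0.0306), and Srebf2 had 100 and 106 CPM in WT and 129 and 134 CPM in YFP (-0.36 ± 0.11, adjusted p = 0.0386). Mvd, of the mevalonate pathway, had 11.6 and 11 CPM in WT and 21.1 and 19.7 CPM in YFP (-0.85 ± 0.21, adjusted p = 0.0187). Fasn, the fatty acid synthase, had 239 and 242 CPM in WT and 309 and 304 CPM in YFP (-0.35 ± 0.11, adjusted p = 0.0495). Without WT replicate 1 or WT replicate 2 the list had 1 lower call, without YFP replicate 1 it had 5, without YFP replicate 2 it had 6, without S280D replicate 1 it had 9, and 15 were lower with the exon length offset. On junction reads 7 were lower.

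Matrix genes had more lower than higher calls. Of 55 collagen and basement membrane genes 14 fell (25.5%), 3 rose (5.45%) and 38 were not called, with a median of -0.26. Over all genes 7.45% were lower and 12.2% higher. Of 30 matrix proteases and inhibitors 11 fell (36.7%), 3 rose (10%) and 16 were not called. Col1a1 had 18968 and 22491 CPM in WT and 29162 and 34547 CPM in YFP (-0.62 ± 0.15, adjusted p = 0.0199), and its intron reads fell too, at 918 and 1059 CPM in WT and 1967 and 1854 CPM in YFP (-0.95, adjusted p = 0.0463). Timp3, a protease inhibitor bound to matrix, had 16.2 and 19.6 CPM in WT and 26.5 and 30.2 CPM in YFP (-0.67 ± 0.16, adjusted p = 0.0181). The exceptions were Vcan, Tnc and Lox among matrix genes. Vcan, the proteoglycan versican, had 823 and 813 CPM in WT and 428 and 405 CPM in YFP (0.98 ± 0.13, adjusted p = 0.00336). Tnc, tenascin C, had 61 and 62.5 CPM in WT and 36.4 and 34 CPM in YFP (0.81 ± 0.12, adjusted p = 0.00341). Lox, which crosslinks elastin and collagen, had 1264 and 1291 CPM in WT and 713 and 920 CPM in YFP (0.65 ± 0.15, adjusted p = 0.0167). Col1a2 (-0.5 ± 0.14) is uncertain, since 0.401% of its exon reads were unique and on those its log2 fold change was 0.39. Without WT replicate 1 no lower call was left in either list in edgeR, without WT replicate 2 there were 2 and 1, without YFP replicate 1 9 and 4, and without YFP replicate 2 6 in each. Leaving out S280D replicate 1 or S280D replicate 2, which belong to neither group compared, left 8 and 9 lower collagen-list calls and 5 and 6 in the protease list. The offset gave 22 lower collagen-list calls. Summed fibroblast markers stood at 74747 and 82319 CPM in WT and 90321 and 94823 CPM in YFP, with 3 of the 6 tested lower and none higher in edgeR or DESeq2. All 3 were collagens, Col1a2 among them, while Fn1, fibronectin, stood at 36021 and 37542 CPM in WT and 33338 and 29164 CPM in YFP. Smooth muscle markers summed to 9784 and 10390 CPM in WT and 14650 and 12426 CPM in YFP, with 1 of 5 lower. In such bulk samples fewer cells of a kind and less RNA per cell cannot be told apart.

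Cytosolic ribosomal protein genes, which are short (median exon length 632 bases), fell in 15 of 67 cases (22.4%) and rose in 2 (2.99%). Over all genes 7.45% were lower and 12.2% higher. The median of the list was -0.24. Rps16, of the small subunit, had 519 and 519 CPM in WT and 813 and 878 CPM in YFP (-0.7 ± 0.14, adjusted p = 0.00881), with 35.4% of its reads unique. Pseudogene copies share reads with these genes, so single values are uncertain, and 11 were lower and 6 higher on unique reads. With the length offset 9 were lower and 6 higher. Lower calls numbered 0 when WT replicate 1 was left out, 2 when WT replicate 2 was and 4 when YFP replicate 1 was. Translation factors and aminoacyl-tRNA synthetases went both ways, with 13 of 61 higher and 7 lower, or 1 and 0 without WT replicate 1. In the fit of all 8 libraries 21.3% of this list were higher and 11.5% lower. Eif2s2, a subunit of the initiation factor eIF2, had 316 and 319 CPM in WT and 163 and 168 CPM in YFP (0.94 ± 0.15, adjusted p = 0.00468). Cars, the cysteinyl-tRNA synthetase, had 159 and 172 CPM in WT and 240 and 217 CPM in YFP, a log2 change of -0.47.

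Stress, growth factor and muscle genes gave calls in both directions. Over all genes 12.2% were higher and 7.45% lower. Of 38 genes of the unfolded protein and integrated stress response 2 rose (5.26%) and 4 fell (10.5%). Atf4, its transcription factor, had 712 and 757 CPM in WT and 956 and 1101 CPM in YFP (-0.49 ± 0.12, adjusted p = 0.0186). Slc7a11, the cystine transporter, rose, at 104 and 78.7 CPM in WT and 33.1 and 35.3 CPM in YFP (1.42 ± 0.2, adjusted p = 0.00336). Of 46 growth factor ligands and receptors 4 rose (8.7%) and 5 fell (10.9%). Kitlg, the ligand of Kit, had 75.6 and 50.5 CPM in WT and 21.7 and 25.4 CPM in YFP (1.42 ± 0.25, adjusted p = 0.00636). Igfbp4, which binds insulin-like growth factors, had 256 and 296 CPM in WT and 430 and 504 CPM in YFP (-0.76 ± 0.13, adjusted p = 0.00575). Of 47 muscle genes 4 rose and 4 fell (8.51% each). Mef2a, a muscle transcription factor, had 136 and 109 CPM in WT and 48.3 and 53.5 CPM in YFP (1.27 ± 0.2, adjusted p = 0.00423). Tnnc1, cardiac troponin C, had 252 and 307 CPM in WT and 405 and 415 CPM in YFP (-0.56 ± 0.15, adjusted p = 0.0253). DESeq2 called 4 muscle genes higher and 9 lower. Without WT replicate 1 the muscle list had 1 higher and 0 lower calls, the growth factor list 0 in either direction, and the stress response list 1 higher and 0 lower. In the proteasome 5 of 42 rose and 5 fell (11.9% each). Of 48 lysosome genes 4 fell (8.33%) and none rose in edgeR, where 2 were higher and 16 lower at an unadjusted p under 0.05. The median of the lysosome list was -0.24. DESeq2 called 2 lysosome genes higher. Neither the proteasome nor the lysosome list had a call without WT replicate 1 in edgeR.

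The lane covariate left 9 genes called, and 5 of them carry an assigned symbol beside Ppara. Cxcl1 stood at 5.89 ± 0.62 (adjusted p = 0.0087), Cav2 at 2.18 ± 0.23 (adjusted p = 0.0087), Gbp5 at 2.44 ± 0.29 (adjusted p = 0.0164), Sp3 at 2.21 ± 0.28 (adjusted p = 0.021) and Vps13a at 2.17 ± 0.31 (adjusted p = 0.0404). Ppara stood at 7.93 ± 0.42 (adjusted p = 2.5e-05). Sp3, a transcription factor of the Sp family, had 24.4 and 24.9 CPM in WT and 6.97 and 7.41 CPM in YFP, with 40.4% of its exon reads unique. LOC685067 lies close to Gbp5 on chromosome 2 and had 29.8 and 31.1 CPM in WT and 7.85 and 6.85 CPM in YFP. RGD1309362 had 226 and 200 CPM in WT and 78.2 and 63.7 CPM in YFP. LOC683961 was the gene called lower, at 17.2 and 20.2 CPM in WT and 60.3 and 53.7 CPM in YFP, with 9.94% of its reads unique. The lane term of Cxcl1 was -1.16 ± 0.47, opposite in sign to its change, and that of Cav2 0.43 ± 0.16. The Cxcl1 term rests on mutant libraries with few Cxcl1 reads, at 0.211 and 0.725 CPM in S280A and 0.943 and 0.501 CPM in S280D. Without the lane term the change of Cxcl1 was 4.73 ± 0.48.

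**Figure D4:**
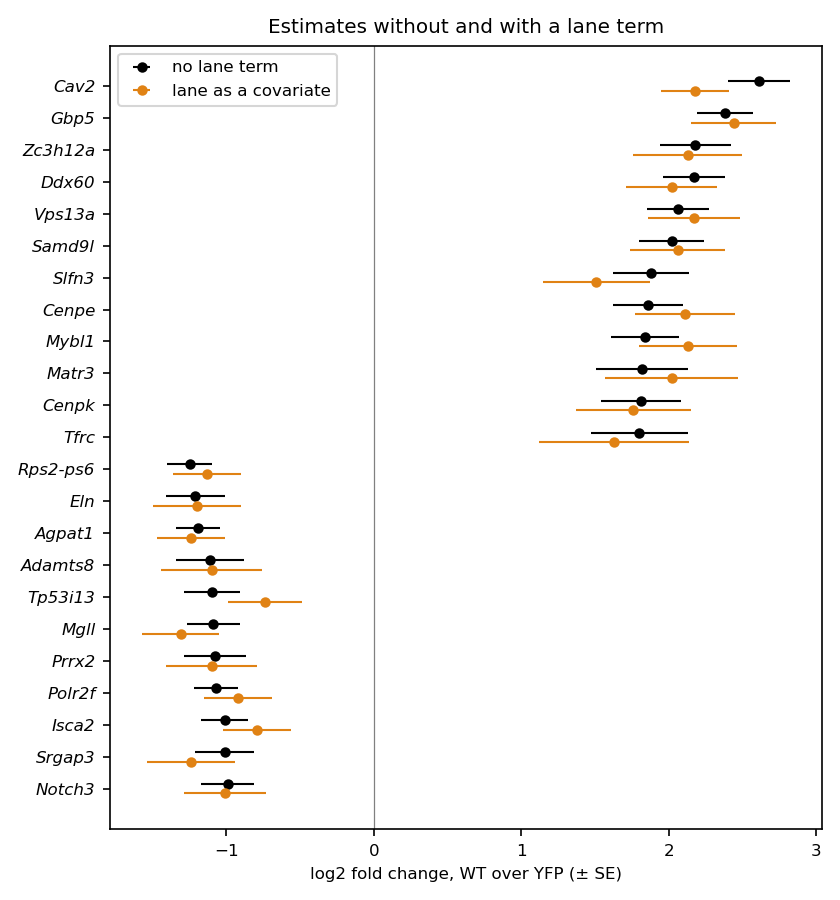
log2 fold change of WT over YFP on exon reads (horizontal axis, bars ± SE) for 12 large increases and 11 large decreases, without a lane term (black) and with lane as a covariate (orange). Each gene keeps its sign, and the bars with the covariate are wider; of the genes plotted Cav2, Gbp5 and Vps13a stayed called.

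Intron reads, a second readout of the same libraries, gave fewer calls. Of 12988 genes tested on them, 85 (0.654%) were higher and 178 (1.37%) lower in WT, so the balance was the reverse of that on exon reads. The spread between replicates was wider, with a biological coefficient of variation of 0.21 for intron reads and 0.133 for exon reads. Antiviral genes were among those higher on both. Ddx60 introns had 126 and 132 CPM in WT and 32.9 and 43.1 CPM in YFP (1.75 ± 0.25, adjusted p = 0.00617), and Slfn3 introns had 142 and 147 CPM in WT and 44.3 and 55.9 CPM in YFP (1.52 ± 0.22, adjusted p = 0.00617). Samd9l introns had 617 and 478 CPM in WT and 200 and 180 CPM in YFP (1.53 ± 0.25, adjusted p = 0.0103). Eln introns had 427 and 499 CPM in WT and 869 and 1231 CPM in YFP (-1.18 ± 0.26, adjusted p = 0.0343), close to its exon change. Vcan introns had 52 and 62.1 CPM in WT and 26.7 and 27 CPM in YFP (1.09, adjusted p = 0.0417). Zc3h12a and Cenpe rose on exon reads without a call on intron reads, where they stood at 0.03 ± 0.48 and -0.29 ± 0.39. A difference between the readouts was not tested. The lane covariate left 1 call on intron reads. Leaving out WT replicate 1 left 2 intron calls, leaving out WT replicate 2 left 6 and leaving out YFP replicate 1 left 60.

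**Figure D5:**
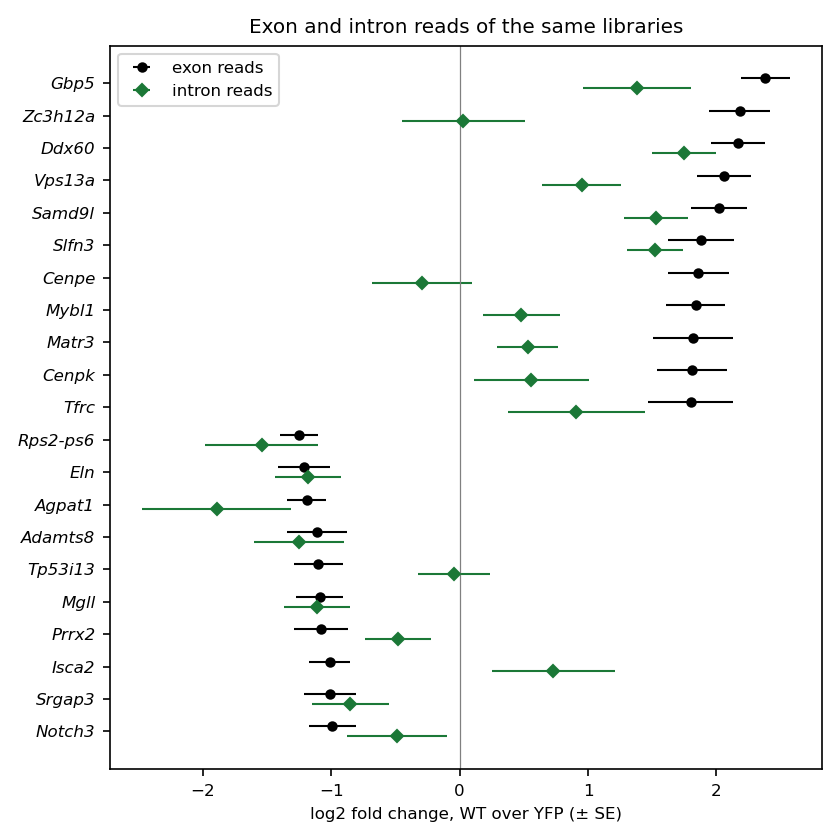
log2 fold change of WT over YFP (horizontal axis, bars ± SE) from exon reads (black circles) and intron reads (green diamonds), for the 21 genes among the largest changes that were tested on intron reads. Ddx60, Samd9l, Slfn3, Eln and Mgll lie on the same side with similar size in both, whereas Zc3h12a, Cenpe and Tp53i13 lie near 0 on intron reads. Isca2 lies at 0.73 on intron reads, opposite in sign to its exon change.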

How the data were processed

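H9C2 poly(A) RNA went into strand-specific paired-end libraries, per the labels' protocols. In 1 table the authors deposited raw counts per gene of total exon, unique exon, junction and intron reads for each library, per the file headers. The build is Rnor_6.0, per the submitters' processing notes. Aligner, annotation and counting strand: not given in the sources used here. Overlapping and antisense genes may share reads. Table starts count from 0 and are printed from 1. The table holds 32258 features, 20259 with exon reads. WT replicate 2 is numbered otherwise in its description.

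The test on exon counts was that of edgeR 4.0.16 (R 4.3.3): filterByExpr, TMM scaling, a quasi-likelihood fit of all 8 libraries with 1 coefficient per group (4 residual degrees of freedom, 3 with lane), two-sided, Benjamini-Hochberg over all genes, threshold 0.05. Intron counts were tested alike. CPM are TMM-scaled. The members and lists were chosen with earlier results of these data known. The named genes are Ppara, the 12 largest increases and decreases called on total and unique reads with at least 10 CPM, genes called with lane, and for each list up to 4 called members per direction. Largest changes leave out overlapping groups and most provisional symbols, though AC109958.1 was kept. Further list members are named after their values were seen. No list was given a set test. Of 2196 list symbols 2130 were matched. Alternatives were RLE factors, other filters, DESeq2 1.42.0, the WT and YFP libraries only, a replicate block, lane, unique reads, an exon length offset and leaving out each library; junction reads were added after seeing the data. Scripts were tested on simulated data. Promoters are from RefSeq GRCr8. Reads were amplified by PCR and carry no molecular identifiers, so they are not independent molecules. Replicates differed by more than sampling noise. Some members of the lists are not reported here.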

Additional observations from a re-analysis of the deposited data

How the results depend on the processing

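Of the 2437 genes called, 2401 were called with RLE factors, 2350 with DESeq2, 2206 after the exon length offset and 2263 on unique reads, with the same sign in all but 1 gene on unique reads. The lane covariate left 9 calls, 8 higher and 1 lower, and on intron reads 1 was called, with 1 higher and 0 lower in edgeR. On junction reads, an alternative chosen after seeing the data, 1315 were called, 793 higher and 522 lower, of 9466 tested. Leaving out 1 library gave 163 to 2917 calls, 144 to 1688 higher and 19 to 1229 lower, and on intron reads 2 to 496 calls, 2 to 200 higher and 0 to 306 lower. The lowest were without WT replicate 1, where 2608 genes had an unadjusted p under 0.05 on exon reads. The group left with 1 library is then assumed to vary like the others. Lower calls on exon reads were 586 without S280D replicate 1. On intron reads no filter on low counts gave 676 calls, 297 higher and 379 lower, and DESeq2 132 higher. Deviations of same-numbered WT and YFP libraries correlated at -0.0916, and those of the other pairs of groups at -0.173 to 0.205. With 1 deviation per group, this cannot show whether the numbers pair the libraries. With the replicate number as a block 2152 genes were called. The sign turned for Gadd45a (-0.19), Inhba (-0.53) and Zfp365 (-0.12) on junction reads and for Col1a2 (0.39) on unique reads. It also turned for Lyz2, which has few reads, at -0.74 with lane, -5.25 when WT replicate 2 was left out and -0.32 when YFP replicate 2 was, and it was 1.41 when YFP replicate 1 was left out. The cause was not tested. GC content was not examined here. With 2 libraries a group and CPM of low genes resting on few reads, a missing call does not show that a gene was alike in WT and YFP.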
